A study of Homo sapiens with 24 samples.

Results

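The RELB knockdown in adherent OV90 cells was examined across all mature miRNAs of a small RNA sequencing (miR-seq) table. OV90 is an established cell line of epithelial ovarian cancer. The comparison took the 4 libraries labelled shRELB in adherent culture against the 4 labelled shNeg in adherent culture, chosen by their titles, 8 of the 24 libraries of the series. The shRELB cells carried an inducible short hairpin RNA against RELB, and the shNeg cells a negative control hairpin that the genotype label calls wild type. Both groups were given 1 µg/ml doxycycline for 72 h, so the controls share the inducer with the knockdown. The other libraries, 4 of each group, were shRELA in adherent culture and shNeg, shRELA and shRELB in spheroid culture. No label says that the replicates are separate cultures or transductions, so the p-values measure the spread between these libraries, which may be technical. The hairpin sequences are not labelled, and miR-seq reads no mRNA, so the extent of RELB silencing cannot be read from the table.

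A mature miRNA is a short RNA cut from a hairpin in a longer transcript, and it guides silencing proteins to mRNAs that pair with its seed, the bases at positions 2 to 8. The arms of a hairpin give a 5p and a 3p product, and several hairpins can lie on 1 transcript, so arms and neighbours often share their transcription. RELB is a transcription factor subunit of the NF-κB family. It acts mainly in the non-canonical branch of the pathway, commonly with the NFKB2 product p52, while RELA acts mainly in the canonical branch with p50. Both branches are used in ovarian cancer cells for survival and inflammatory gene expression.

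The sequences of the miRNAs on which the results turn are given 5′ to 3′, as RefSeq lists them for GRCh38.p14, with the seed in capitals. The first set holds called miRNAs that rose and are described with their clusters or lists, most of them above 10 CPM. The 3p products of the miR-302 cluster have 1 seed in common, and the 5p arm of miR-302a has another.
miR-155-5p: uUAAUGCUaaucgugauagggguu
miR-184: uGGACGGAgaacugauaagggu
miR-302a-5p: aCUUAAACguggauguacuugcu
miR-302a-3p: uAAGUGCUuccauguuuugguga
miR-302b-3p: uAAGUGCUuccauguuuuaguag
miR-302c-3p: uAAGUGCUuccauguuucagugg
miR-302d-3p: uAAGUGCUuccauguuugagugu
miR-92b-5p: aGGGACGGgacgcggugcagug
miR-92b-3p: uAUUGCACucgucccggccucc
miR-1269a: cUGGACUGagccgugcuacugg
miR-200c-3p: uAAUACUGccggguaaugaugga
miR-34a-5p: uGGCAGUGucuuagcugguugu

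The second set holds called miRNAs that fell and are described in the same way. miR-192-5p and miR-215-5p share a seed, and so do the members of the miR-378 group.
let-7b-5p: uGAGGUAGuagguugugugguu
miR-194-5p: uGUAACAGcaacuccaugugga
miR-192-5p: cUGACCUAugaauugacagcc
miR-215-5p: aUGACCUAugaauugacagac
miR-126-5p: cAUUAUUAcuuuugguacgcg
miR-126-3p: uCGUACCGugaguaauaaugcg
miR-224-5p: uCAAGUCAcuagugguuccguuuag
miR-452-5p: aACUGUUUgcagaggaaacuga
miR-105-5p: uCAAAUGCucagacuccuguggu
miR-378a-3p: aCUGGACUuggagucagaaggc
miR-378c: aCUGGACUuggagucagaagagugg
miR-378f: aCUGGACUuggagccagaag
miR-378i: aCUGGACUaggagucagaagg
miR-422a: aCUGGACUuagggucagaaggc

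The third set holds seeds whose members were called in opposite directions. miR-135a-5p fell and miR-135b-5p rose, and miR-32-5p fell while miR-92b-3p, printed above, rose.
miR-135a-5p: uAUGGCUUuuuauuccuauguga
miR-135b-5p: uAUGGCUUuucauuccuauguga
miR-32-5p: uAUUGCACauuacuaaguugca

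The libraries held 3797175 to 6624182 counts with shNeg and 4512503 to 6106053 with shRELB, on 1043 to 1172 and 1099 to 1171 miRNAs. A total of 692 of the 2656 miRNAs in the table reached at least 1 CPM (the count of a miRNA scaled to a common library total) in at least 4 of the 12 adherent libraries and were tested. The limit of 3 counts that a count of 0 allows was worth 0.453 to 0.790 CPM with shNeg and 0.491 to 0.665 CPM with shRELB, for counting error only. Of the markers of other cell types, the muscle list summed to 0.633 to 1.76 CPM with shNeg and 2.14 to 4.43 CPM with shRELB, the neural list to 0.319 to 1.36 CPM with shNeg and 1.07 to 1.56 CPM with shRELB and the haematopoietic list to 8.98 to 13 CPM with shNeg and 9.29 to 13.3 CPM with shRELB. The mesenchymal list summed to 294 to 372 CPM with shNeg and 268 to 355 CPM with shRELB, and the epithelial list to 4624 to 4952 CPM with shNeg and 7121 to 10056 CPM with shRELB. miR-122-5p, the liver miRNA, was at 18308 to 19926 CPM with shNeg and 17053 to 20267 CPM with shRELB. The epithelial markers were present in every library apart from miR-203a-3p, with 0 to 5 counts.

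After RELB knockdown, 118 miRNAs were differentially expressed, which is 17.1% of the 692 tested, at a false discovery rate (FDR) below 0.01 and a fold change above 2 in edgeR's quasi-likelihood test. Of these, 58 were higher (8.38% of those tested) and 60 were lower (8.67%). Counts of calls in the families and lists below are to be read against these shares. The lists were chosen with earlier results of these data known. The 8 values did not overlap between the groups for 114 of the 118, against 287 of all 692 (41.5%). Of the calls, 53 averaged 10 CPM or more over the 8 libraries, 25 higher and 28 lower, and the others lie nearer to the depth limit. Some miRNAs of near-identical sequence had identical counts in every library, and the 118 calls are 114 distinct count profiles. With all 24 libraries of the series in 1 fit, which also tested 905 miRNAs instead of 692 and scaled all libraries together, the calls were 64, with 32 in each direction. In that fit miR-452-5p, miR-335-5p, miR-9-3p, miR-27a-5p and 11 other named miRNAs, mostly of low abundance, were no longer called. The median log2 fold change of all tested miRNAs was 0.0042.

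**Figure D1:**
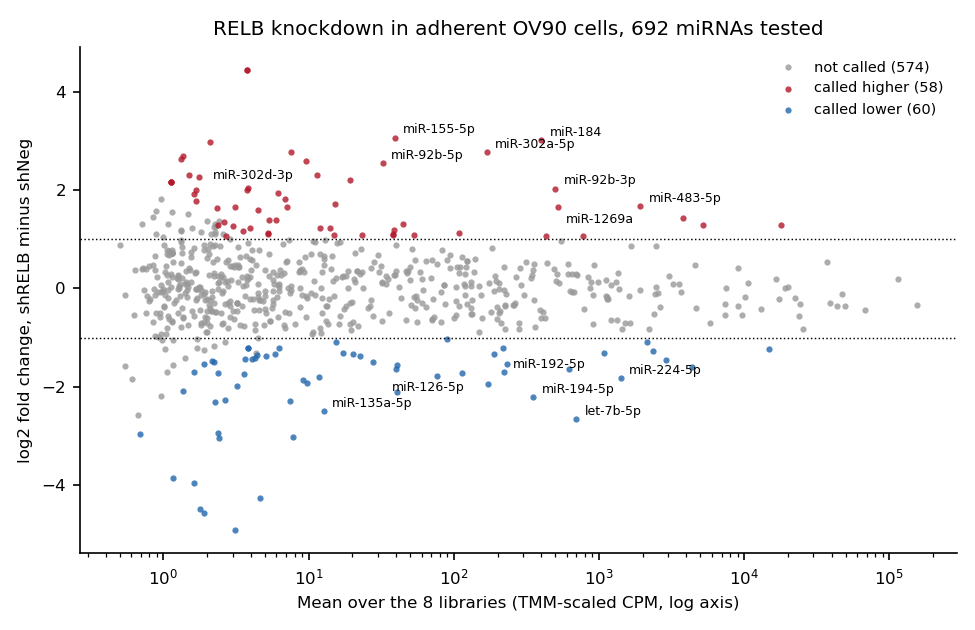
Log2 fold change of shRELB against shNeg in adherent cells (vertical axis) by the mean of the 8 libraries in TMM-scaled CPM (horizontal log axis), 1 point for each of the 692 tested miRNAs. Red points are the 58 called higher, blue points the 60 called lower, and dotted lines mark a fold change of 2. Labelled points are most of the miRNAs with the highest rises and largest falls at 10 CPM or more.

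miR-155-5p, a classic target of NF-κB in immune cells, had the highest rise among the miRNAs that averaged 10 CPM or more. It was at 6.97, 9.52, 8.95 and 8.14 CPM in the 4 shNeg libraries and 61.7, 65.3, 76.3 and 77.9 CPM in the 4 shRELB libraries. The groups were far apart, with means of 8.39 ± 1.11 and 70.3 ± 8.02 CPM (SD, n = 4) and a log2 fold change of 3.07 (SE 0.19), that is 8.42-fold (FDR 1.79e-10, edgeR's quasi-likelihood test). Its mature sequence lies on chromosome 21, 25573983 to 25574006, plus strand, in an exon of MIR155HG. Of 11 tested miRNAs linked to NF-κB, 1 rose, 2 fell and 8 were not called, with a median log2 fold change of −0.017. Of all tested miRNAs, 8.38% were called higher and 8.67% lower. miR-146a-5p, a feedback inhibitor of NF-κB signalling through TRAF6 and IRAK1, was at 32709, 29645, 29991 and 29447 CPM with shNeg and 44800.1, 38244, 51025 and 43968 CPM with shRELB. Its shRELB libraries were all above its shNeg libraries, and its log2 fold change of 0.55 (SE 0.087) passed the FDR (FDR 5.43e-05, edgeR's quasi-likelihood test) but not the fold change threshold. miR-146b-5p, also not called, was at 541.4, 480.8, 450.8 and 456.8 CPM with shNeg and 364.6, 309.0, 371.7 and 333.2 CPM with shRELB. The shRELB libraries of miR-146b-5p were all below its shNeg libraries, the reverse of miR-146a-5p. The 2 called lower were both arms of miR-9, which has NFKB1 among its known targets. miR-9-5p went from 269.9 ± 32.2 to 108 ± 10.1 CPM (log2 fold change −1.33, SE 0.12) and miR-9-3p from 14.4 ± 3.48 to 3.92 ± 1.39 CPM (log2 fold change −1.86, SE 0.34). The reads of miR-9 can come from any of 3 hairpins, on chromosomes 1, 5 and 15. miR-21-5p, one of the most abundant miRNAs here, had overlapping groups at 53224, 52089, 47806 and 44109 CPM and 37308, 29805, 50851 and 36153 CPM.

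**Figure D2:**
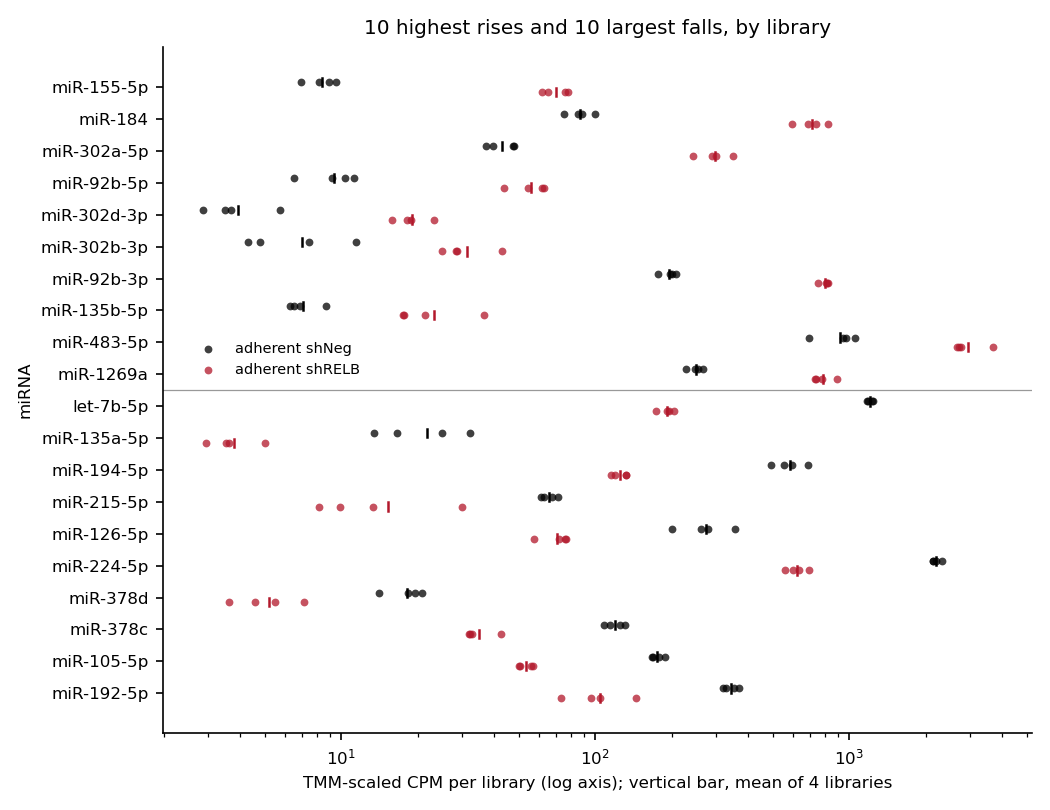
TMM-scaled CPM of the 10 highest rises and 10 largest falls in each adherent library (horizontal log axis), with shNeg libraries in black, shRELB libraries in red and vertical bars at the means of 4 libraries. For each of these 20 miRNAs the 4 shRELB libraries lie wholly to one side of the 4 shNeg libraries, which the rule that chose them required.

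The tested products of the miR-302 cluster rose. These miRNAs are known as markers of pluripotent stem cells, and their 4 hairpins lie on chromosome 4, 112648004 to 112648557, minus strand, in exons of MIR302CHG and opposite an intron of LARP7. All 6 tested products were called higher, with log2 fold changes from 2.21 to 2.99. miR-367-3p and miR-302b-5p, also from this cluster, had 0 counts in all 8 libraries and were not tested. miR-302a-5p was at 47.7, 37, 47.4 and 39.4 CPM with shNeg and 289, 349.8, 298 and 243 CPM with shRELB, 6.86-fold higher (FDR 2.16e-10, edgeR's quasi-likelihood test). miR-302b-3p was at 7.44, 11.4, 4.31 and 4.79 CPM and 24.9, 28.7, 43.1 and 28.4 CPM. miR-302d-3p was at 2.85, 5.71, 3.48 and 3.67 CPM and 15.9, 18.1, 23.2 and 18.9 CPM. Neither of these 3p products had a shRELB library as low as any shNeg library, which the rule that chose them required. The products of miR-302c had few reads, with 3, 0, 1 and 4 counts of miR-302c-3p with shNeg and 16, 6, 22 and 11 with shRELB. Summed over the 5 tested miRNAs with the seed AAGUGCU, which include miR-373-3p, the level went from 15.5 ± 4.02 to 72.8 ± 15.8 CPM, a ratio of 4.69. Of the 8 tested miRNAs of the miR-302 and miR-371 clusters, 6 rose and 0 fell, and the median log2 fold change was 2.45.

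miR-184, known from the eye and the skin epithelium, rose from 88.8, 75.6, 85.1 and 99.5 CPM to 685, 595, 738 and 826 CPM, a log2 fold change of 3.02 (SE 0.13) or 8.13-fold (FDR 9.09e-13, edgeR's quasi-likelihood test). Its hairpin is on chromosome 15, 79209788 to 79209871, plus strand. Both arms of miR-92b rose, from a hairpin on chromosome 1, 155195177 to 155195272, plus strand, in an exon of THBS3-AS1. miR-92b-3p was at 176, 201, 197 and 208 CPM with shNeg and 754, 820.2, 824 and 808 CPM with shRELB, with a log2 fold change of 2.04 (SE 0.11). miR-92b-5p was at 9.18, 6.53, 11.3 and 10.4 CPM and 43.5, 54.4, 62.9 and 61.5 CPM, with a log2 fold change of 2.55 (SE 0.22). No other tested member of its seed family was called higher. miR-92a-3p, from the oncogenic miR-17-92 cluster, had overlapping groups at 48927 ± 1955 and 45362 ± 1405 CPM, and miR-25-3p had a log2 fold change of −0.54 (SE 0.08). miR-32-5p was called lower at 5.7, 10.1, 4.97 and 3.35 CPM against 2.29, 0.975, 1.79 and 3.43 CPM, and that call was lost without any 1 of shNeg replicates 1, 2 and 3, shRELB replicates 1, 2 and 3 and shRELA replicate 1. Summed over the 5 miRNAs with the seed AUUGCAC, the level was 60588 ± 1670.0 CPM with shNeg and 54136 ± 1292 CPM with shRELB, a ratio of 0.894.

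The 2 members of the miR-135 family moved in opposite directions. miR-135a-5p fell from 24.9, 32.1, 16.6 and 13.4 CPM to 3.51, 2.92, 5 and 3.62 CPM, with a log2 fold change of −2.50 (SE 0.30). miR-135b-5p rose from 6.49, 8.71, 6.29 and 6.87 CPM to 21.4, 17.5, 36.5 and 17.7 CPM, with a log2 fold change of 1.73 (SE 0.24). The groups did not overlap for either, which the rule that chose the highest rises and largest falls required. They have the same seed, AUGGCUU, and their summed level was 28.8 ± 9.29 CPM with shNeg and 27 ± 9.8 CPM with shRELB, a ratio of 0.938. miR-1269a, from a hairpin on chromosome 4, 66276824 to 66276928, plus strand, rose from 246, 228, 254 and 266 CPM to 734, 780.2, 743 and 896 CPM, with a log2 fold change of 1.66 (SE 0.15).

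Among miRNAs of imprinted loci, 2 of 6 tested rose and 4 fell. Both arms of miR-483, from an intron of the growth factor gene IGF2, rose. miR-483-3p went from 10248, 9059.8, 10680.4 and 11609.6 CPM to 25799, 28554, 23849 and 23754 CPM (log2 fold change 1.29, SE 0.11). miR-483-5p was at 975, 692, 941 and 1056 CPM and 2750.3, 2707, 2665 and 3664 CPM (log2 fold change 1.69, SE 0.20), with shRELB replicate 4 above the other libraries of its group. miR-675-3p, from an exon of the H19 RNA that lies beside IGF2, was the reverse, with 13, 10, 29 and 26 counts with shNeg and 0, 0, 3 and 0 with shRELB. Both arms of miR-335, from an intron of MEST on chromosome 7, 130496111 to 130496204, plus strand, fell. miR-335-5p was at 50.5, 75.6, 64.6 and 50.9 CPM with shNeg and 19.9, 11.3, 29.8 and 21 CPM with shRELB (log2 fold change −1.55, SE 0.28). miR-335-3p was at 37.7, 53.9, 37.8 and 33.5 CPM and 13.3, 12.7, 16.8 and 14.9 CPM (log2 fold change −1.49, SE 0.21). The fourth, miR-296-5p, had a log2 fold change of −1.70 (SE 0.43) at 2.5 ± 0.896 CPM with shNeg, and its call was lost without shNeg replicate 4 or shRELB replicate 1.

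Epithelial miRNAs did not move as 1 group. miR-200c-3p, which holds cells in an epithelial state by repressing ZEB1 and ZEB2, rose from 2989, 3200.3, 2911 and 3032 CPM to 6195, 6619, 9099 and 7789.6 CPM, a log2 fold change of 1.29 (SE 0.11) or 2.45-fold. Its neighbour on chromosome 12, miR-141, was called on the 5p arm at 2.93 ± 0.32 to 7.79 ± 1.7 CPM (log2 fold change 1.39, SE 0.26), while miR-141-3p stayed below the fold change threshold at 0.82 (SE 0.16). The members on chromosome 1 were not called, with log2 fold changes of 0.38 (SE 0.28) for miR-200a-3p, 0.54 (SE 0.17) for miR-200b-3p and 0.14 (SE 0.54) for miR-429. In all, 2 of 7 tested members of the family rose and 0 fell, and the median log2 fold change was 0.82. miR-205-5p, a squamous and basal epithelial miRNA that also represses ZEB1 and ZEB2, went the other way, from 1563, 1563, 1543 and 1532 CPM to 654, 645, 649 and 536 CPM (log2 fold change −1.32, SE 0.10). miR-204-5p, from an intron of TRPM3, fell from 15.2, 15, 9.61 and 10.1 CPM to 2.9, 2.34, 2.5 and 2.29 CPM (log2 fold change −2.29, SE 0.27). Of 5 tested mesenchymal markers, miR-214-3p was called higher, from 1 to 4 counts per library with shNeg to 8 to 21 with shRELB. The other 4, miR-143-3p, miR-145-5p, miR-199a-3p and miR-199a-5p, were not called, and the median log2 fold change of the list was 0.56.

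The miRNAs linked to p53 were called in both directions. miR-34a-5p, which p53 induces and which represses MET, BCL2 and CDK6, rose from 2209, 2057, 2075 and 1814 CPM to 5985, 5739, 5594 and 4834 CPM. Its log2 fold change was 1.44 (SE 0.096), or 2.72-fold (FDR 7.08e-10, edgeR's quasi-likelihood test), and its shRELB libraries were all far above its shNeg libraries. The other 3 tested members, miR-192-5p, miR-194-5p and miR-215-5p, fell. They come from paired hairpins, MIR215 with MIR194-1 on chromosome 1 (220117853 to 220118241, opposite an intron of IARS2) and MIR192 with MIR194-2 on chromosome 11 (in exons of MIR194-2HG), and are known as hepatocyte and gut epithelial miRNAs. miR-194-5p, which can come from either pair, was at 597, 690.02, 554 and 489.7 CPM with shNeg and 133, 116, 132 and 119 CPM with shRELB (log2 fold change −2.22, SE 0.17). miR-192-5p was at 368, 351, 327 and 319 CPM and 104, 73.5, 144 and 96.4 CPM (log2 fold change −1.71, SE 0.17). miR-215-5p was at 61.1, 67.5, 71.6 and 62.7 CPM and 9.93, 8.19, 29.8 and 13.3 CPM (log2 fold change −2.10, SE 0.30). The groups were separate for all 3, which the rule that chose the largest falls required. The passenger arms miR-192-3p and miR-215-3p were called lower as well, at −1.92 and −3.03 on the log2 scale, while miR-194-3p was not called at −0.50 (SE 0.23). Summed over the seed UGACCUA, which miR-192-5p and miR-215-5p share, the level went from 407 ± 21.1 to 119.8 ± 38.8 CPM, a ratio of 0.294. miR-122-5p, another hepatocyte miRNA, had a log2 fold change of 0.01 (SE 0.089), while its other arm, miR-122-3p, was called lower at −1.34. The call of miR-122-3p was lost without any 1 of shNeg replicate 2 and shRELB replicates 1, 2 and 4.

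The largest fall among miRNAs that averaged 10 CPM or more was that of let-7b-5p. The let-7 miRNAs repress LIN28, HMGA2 and RAS genes and are often low in tumors. let-7b-5p was at 1189, 1179.5, 1227 and 1238 CPM with shNeg and 173, 192, 195.5 and 203 CPM with shRELB, 6.33-fold lower (log2 fold change −2.66, SE 0.11, FDR 9.09e-13, edgeR's quasi-likelihood test). It was the 1 call among the 9 tested guide strands of the let-7 family. The passenger strand let-7i-3p, at 95, 117, 116 and 111 counts with shNeg and 59, 58, 50 and 50 with shRELB, was also called lower (log2 fold change −1.09, SE 0.27), a call lost without shNeg replicate 2, shRELB replicate 1 or shRELB replicate 4. let-7a-5p, whose hairpin MIRLET7A3 lies next to MIRLET7B on chromosome 22 but which has other hairpins elsewhere, was at 82588, 81819, 75631 and 74559.6 CPM and 58599, 50932, 65256 and 58449 CPM (log2 fold change −0.43, SE 0.081). let-7e-5p was at 106881 ± 6170.4 CPM with shNeg and 122946 ± 5176 CPM with shRELB (log2 fold change 0.20, SE 0.077). As let-7 members differ by few bases, the split of reads among them is uncertain. The sum of the family was 231732 to 241677 CPM with shNeg and 203652 to 238594 CPM with shRELB. Of 5 tested members of the miR-99, miR-100 and miR-125 families, miR-100-5p alone was called, at 34, 17, 17 and 26 counts with shNeg and 4, 2, 4 and 2 with shRELB (log2 fold change −2.94, SE 0.41). The miRNA with the most counts in these cells, miR-125a-5p, was at 173897 ± 4590.5 CPM with shNeg and 136981 ± 10061 CPM with shRELB (log2 fold change −0.34, SE 0.072).

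Every tested miRNA hosted by the GABA receptor genes GABRE and GABRA3 on chromosome X was lower, 6 of 6, with a median log2 fold change of −1.73. This list was chosen with earlier results of these data known and holds arms and neighbours of the same hairpins. Its count is therefore not independent evidence. miR-224-5p, in an exon of GABRE (chromosome X, 151958578 to 151958658, minus strand), fell from 2318, 2201, 2134 and 2129 CPM to 694, 559.9, 634 and 599.9 CPM, 3.53-fold. miR-452-5p, from the neighbouring hairpin, was at 33.6, 26.1, 26.7 and 29.1 CPM with shNeg and 10.1, 8.58, 16.4 and 10.7 CPM with shRELB (log2 fold change −1.33, SE 0.21). The groups did not overlap in either case, which for miR-224-5p the rule that chose it required. miR-105 and miR-767 lie in an intron of GABRA3, where miR-105 has 2 hairpins, and are known from germ cells and tumors. miR-105-5p was at 188, 178, 166 and 168 CPM with shNeg and 50.6, 49.9, 56.8 and 55.6 CPM with shRELB (log2 fold change −1.72, SE 0.13). miR-767-5p was at 353, 333, 353 and 348 CPM and 115, 112, 124 and 123 CPM (log2 fold change −1.55, SE 0.12). Their low-abundance 3p arms fell too, by 1.98 and 1.74 on the log2 scale.

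Both arms of miR-126, an endothelial miRNA that restrains SPRED1 and PIK3R2, were lower. Its hairpin lies in an intron of EGFL7 (chromosome 9, 136670602 to 136670686, plus strand). miR-126-3p was at 7026, 6996, 6492 and 5819 CPM with shNeg and 2143, 1745, 2509 and 2263 CPM with shRELB (log2 fold change −1.60, SE 0.15). miR-126-5p was at 261, 356, 278 and 200.4 CPM and 72.1, 57.5, 76.8 and 75.8 CPM (log2 fold change −1.95, SE 0.20). Both arms were lower in every shRELB library than in any shNeg library, which for miR-126-5p the rule that chose it required. They make up the whole endothelial marker list, which summed to 6019 to 7352 CPM with shNeg and 1802 to 2586 CPM with shRELB. In bulk libraries, fewer cells that hold a miRNA and less of it per cell cannot be told apart.

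The miR-378 group fell together. These miRNAs begin with the same bases, and miR-378a lies in an intron of PPARGC1B, a co-activator of mitochondrial genes, on chromosome 5, 149732825 to 149732890, plus strand. miR-378a-3p was at 4676, 3986, 4197 and 4021 CPM with shNeg and 1422, 1432, 1782 and 1489 CPM with shRELB (log2 fold change −1.46, SE 0.11), and its other arm, miR-378a-5p, was at 984, 936, 991 and 844 CPM and 286, 348, 306 and 264 CPM (log2 fold change −1.64, SE 0.11). miR-378c, miR-378d, miR-378f, miR-378i and miR-422a had log2 fold changes of −1.78, −1.80, −1.39, −1.63 and −1.35, at mean levels of 4.42 to 77.1 CPM over the 8 libraries. They come from separate hairpins, but differ so little from miR-378a-3p that the assignment of reads among them is uncertain, and they are not independent of it. The summed level of the 5 with a listed sequence and the seed CUGGACU went from 4414 ± 325 to 1591 ± 176 CPM, a ratio of 0.360. No sequence was listed for miR-378d, so it is not in that sum.

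miR-29a-3p, which represses collagens and other matrix genes, fell from 20004, 21918, 21173 and 20789 CPM to 8982, 9150.2, 9331 and 8043 CPM (log2 fold change −1.24, SE 0.12), and was among the called miRNAs with the most counts. miR-29b-3p was called as well at 255, 458, 283 and 229 and 103, 119, 166 and 137 CPM (log2 fold change −1.22, SE 0.24), a call that was lost without shNeg replicate 2. The other 4 of 6 tested members were not called, and the 3 with the seed AGCACCA summed to 21565 ± 971 CPM with shNeg and 9170.2 ± 597 CPM with shRELB. Of 9 tested products of the miR-23, miR-24 and miR-27 clusters, 3 fell and 2 rose. Those that fell came from the cluster in an intron of AOPEP on chromosome 9. miR-23b-3p was at 3467, 3918, 3064 and 2978 CPM with shNeg and 1442, 1333, 1499 and 1284 CPM with shRELB, and miR-27b-3p, which represses PPARG, was at 2933, 3210.1, 2897 and 2593 CPM and 1254, 1212, 1658 and 1377 CPM. With library totals in place of TMM scaling, miR-27b-3p was at −0.92 on the log2 scale and no longer called. Those that rose were the 5p arms of miR-23a and miR-27a on chromosome 19, with log2 fold changes of 1.65 (SE 0.35) and 1.18 (SE 0.19). The main products of that second cluster were not called, with 0.035 (SE 0.10) for miR-23a-3p and −0.33 (SE 0.15) for miR-27a-3p.

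Of 5 tested members of the miR-193 and miR-365 families, 3 rose and 0 fell. miR-193b-3p went from 24.1, 31, 21.9 and 21.2 CPM to 44.3, 56.7, 55 and 51.8 CPM (log2 fold change 1.09, SE 0.22), and its 5p arm had a log2 fold change of 2.0 (SE 0.39). miR-365a-3p, from the hairpin next to MIR193B, had overlapping groups and a log2 fold change of 0.069 (SE 0.16). miR-152-3p rose from 24.2 ± 1.56 to 52.6 ± 10.1 CPM (log2 fold change 1.12, SE 0.17), a call lost without shRELB replicate 3, while miR-148a-3p, with the same seed, had overlapping groups at 2760.2, 3209.8, 2766 and 2536 and 1484, 1298, 3129 and 1976 CPM. Of 10 tested members of the miR-30 family, miR-30b-5p was called lower (log2 fold change −1.02, SE 0.19), and the call was lost without shNeg replicate 2 or shRELB replicate 2, with limma and with DESeq2.

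Of all 692 tested miRNAs 17.1% were called, so 0 calls among a few members says little. Several abundant families gave no call. They were the miR-17-92 cluster with its paralogs (0 of 12, median log2 fold change −0.38), the miR-15 and miR-16 family (0 of 7, −0.31), miR-181 (0 of 6, 0.22), miR-130, miR-301 and miR-454 (0 of 5, −0.13), miR-221 and miR-222 (0 of 4, 0.062), miR-10 and miR-196 (0 of 4, −0.089) and miR-183, miR-96 and miR-182 (0 of 3, −0.085). None of the 10 miRNAs with the most counts was called. Of these, miR-26a-5p was at 33115, 36421, 31013 and 29389.8 CPM with shNeg and 18910.2, 17396, 19856 and 17495 CPM with shRELB, a log2 fold change of −0.82 (SE 0.098) that passed the FDR but not the fold change threshold. miR-210-3p, a hypoxia-induced miRNA, had overlapping groups at 129 ± 30 and 135 ± 15.4 CPM. Of 14 tested miRNAs that the study named for these cells, 3 rose and 9 fell. That list was chosen by the study on these same libraries, so its count is not independent evidence.

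**Figure D3:**
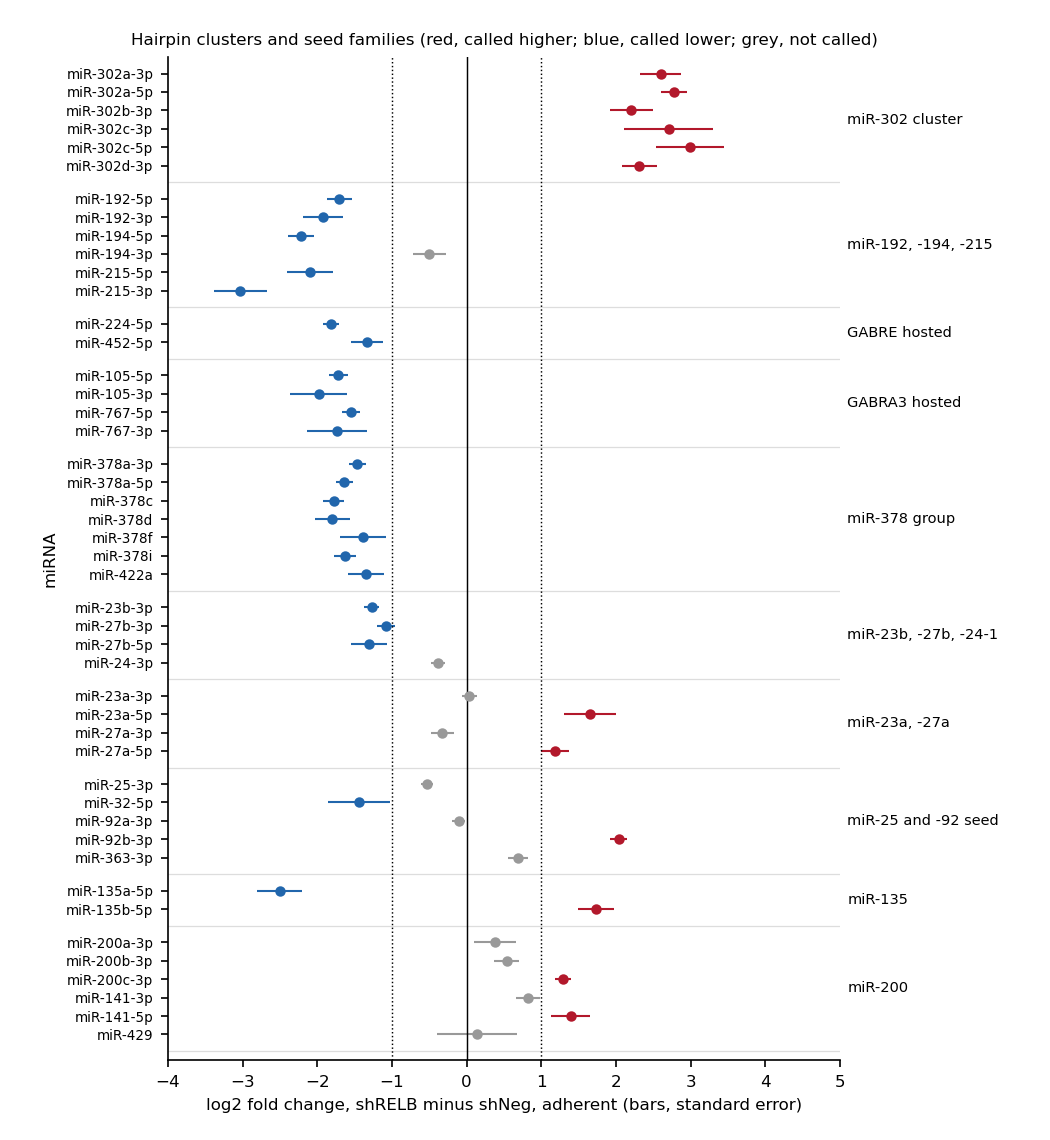
Log2 fold change of shRELB against shNeg in adherent cells (horizontal axis) with its standard error as bars, for 46 miRNAs in 10 hairpin clusters or seed families. Red points were called higher, blue points lower and grey points were not called, and dotted lines mark a fold change of 2. The miR-302, GABRE, GABRA3 and miR-378 groups lie wholly on one side, while the miR-135 seed family and that of miR-25 and miR-92 hold a call in each direction.

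A set of 9 miRNAs had at most 3 counts in every library of 1 group and more than 3 in every library of the other. For these the ratio of the groups is given with a counting interval, since a fitted fold change depends on the prior. The counts of each group were pooled over its 4 libraries, so the interval leaves out the spread between libraries. miR-218-5p, from introns of SLIT2 and SLIT3, had 45, 26, 34 and 27 counts with shNeg and 3, 0, 1 and 0 with shRELB, a ratio of 33.3 (exact 95% counting interval 12.7 to 124) of shNeg to shRELB. miR-577, from an intron of UGT8, had 19, 17, 19 and 25 and 1, 0, 2 and 0 counts, a ratio of 26.9 (exact 95% counting interval 8.89 to 133). The groups do not overlap for these 9 miRNAs, which the rule that chose them required. For miR-675-3p, whose counts are given above, the ratio was 26.3 (exact 95% counting interval 8.66 to 130.1), and for miR-223-3p, a myeloid miRNA, it was 17.7 (exact 95% counting interval 6.61 to 66.7). miR-451a, an erythroid miRNA, was called lower as well, with 14 to 30 counts with shNeg and 1 to 4 with shRELB. miR-144-5p, from the same locus and named after its values were seen, was called lower at 16, 14, 10 and 6 counts against 4, 2, 3 and 2 (log2 fold change −2.08, SE 0.53), a call lost without any 1 of shNeg replicates 1 and 2 and shRELB replicates 2 and 4. The other tested blood cell markers of the list, miR-142-3p, miR-150-5p and miR-486-5p, were not called, and the part of blood cell RNA in these values was not tested. Ratios of 16.5 (exact 95% counting interval 5.33 to 82.8) and 8.76 (exact 95% counting interval 2.68 to 45.2) were found for miR-552-3p and miR-548a-3p. The other arm of miR-552 had more counts, 52, 29, 61 and 58 with shNeg against 5, 1, 4 and 0 with shRELB. miR-3180 and miR-3180-3p were the reverse, with 3, 0, 2 and 2 counts with shNeg and 43, 33, 46 and 41 with shRELB, the same for both since one sequence contains the other. Their ratio of shRELB to shNeg was 23 (exact 95% counting interval 10.9 to 58.2), and their hairpins lie at several places on chromosome 16. miR-199a-5p, with a ratio of shRELB to shNeg of 3.07 (exact 95% counting interval 1.47 to 7.02), was not called.

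Where both arms of a hairpin were called, they had 1 direction. Among 158 hairpin names with both arms tested, 10 had both arms higher, 10 had both lower, 17 had 1 arm called and 121 had none. Of the 10 with both arms higher, 5 hold a call that was lost without 1 of the adherent libraries (miR-34a, miR-766, miR-2277, miR-3180 and miR-3186), against 0 of the 10 with both arms lower. Across the 158, the changes of the 5p and 3p arms had a Spearman correlation of 0.62, and these share the libraries and are not independent. Clusters were formed from hairpins within 10 kb on the same strand, using only miRNAs matched by name to a hairpin position. Called products without a match, such as miR-141-5p beside miR-200c-3p, were left out, so the count with 2 or more calls is a minimum. Among 52 clusters with at least 2 hairpins tested, 11 held 2 or more calls, and in each the calls had 1 direction. In the clusters of MIR193B with MIR365A and of MIR3179-2 with MIR3180-2, the calls are the arms of 1 hairpin, already counted above. The MIR941 and MIR509 clusters had 1 tested miRNA each and could not hold 2 calls. The MIR3689 hairpins among them hold 3 calls with identical counts, which could not differ, and 2 of the 11 clusters hold a call lost without 1 library. Some share a product whose origin is uncertain, such as miR-194-5p. The calls had 91 seeds, of 507 among the tested miRNAs with a sequence (613 of 692), so most calls had a seed of their own. Mature sequences called higher had a median GC content of 57.1% (53 with a sequence), those called lower 45.5% (52 with a sequence), and all tested 50%. Whether sequence composition itself moves the counts in these libraries was not tested.

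RELA knockdown in the same culture was compared with the same 4 shNeg libraries and gave 58 calls (8.38%). Because the controls are shared, each comparison's own values are set side by side, and the difference was tested directly between the shRELB and shRELA libraries. That contrast called 166 of 692 miRNAs (24%), among them 73 of the 118, 42 of the 58 higher and 31 of the 60 lower, in the direction of their change against shNeg. The 118 were chosen on these same shRELB libraries, so the 73 are not independent evidence. For miR-184 the log2 fold changes against shNeg were 3.02 (SE 0.13) with shRELB and −0.87 (SE 0.13) with shRELA, and the direct difference was 3.90 (SE 0.14). For miR-135b-5p they were 1.73 and −1.59 (SE 0.29), both called, with a direct difference of 3.32 (SE 0.27). miR-92b-3p was at −0.15 with shRELA and differed directly by 2.19 (SE 0.11). Of the products of the miR-302 cluster, miR-302a-5p was at 0.88 with shRELA, with a direct difference of 1.89 (SE 0.16). The falls of miR-194-5p, miR-215-5p and miR-192-5p left them lower with shRELB than with shRELA as well, by direct differences of −2.06 (SE 0.17), −2.87 (SE 0.31) and −1.54 (SE 0.17). Both arms of miR-126 and miR-335-5p were likewise lower with shRELB than with shRELA, at −1.37 (SE 0.14), −1.86 (SE 0.20) and −2.50 (SE 0.29). The hosted pairs on chromosome X split in this contrast. miR-224-5p and miR-452-5p were lower with shRELA, at −3.07 (SE 0.11) and −3.42 (SE 0.25) against shNeg, and so higher with shRELB by 1.25 (SE 0.11) and 2.09 (SE 0.26) directly. miR-105-5p and miR-767-5p were at −0.35 and −0.24 with shRELA and lower with shRELB by direct differences of −1.37 (SE 0.13) and −1.30 (SE 0.12). For miR-155-5p, let-7b-5p and miR-205-5p the direct difference did not pass both thresholds, at 0.79 (SE 0.16), −0.51 (SE 0.11) and 0.25 (SE 0.10), and all 3 were called in the same direction with shRELA (2.28, −2.15 and −1.57). The low-count miR-218-5p, miR-223-3p, miR-675-3p and miR-100-5p were also called lower with shRELA, at −3.999, −2.88, −3.36 and −2.87. Their direct differences were not called, at −0.93, −1.09, −1.13 and −0.075. The direct difference was called for miR-577 (−3.44), miR-552-3p (−3.26), miR-548a-3p (−3.25), miR-3180 and miR-3180-3p (both 4.42). These fitted sizes depend on the prior. Of the 118 calls, 20 were also called with shRELA, 4 of the 58 higher and 16 of the 60 lower.

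**Figure D4:**
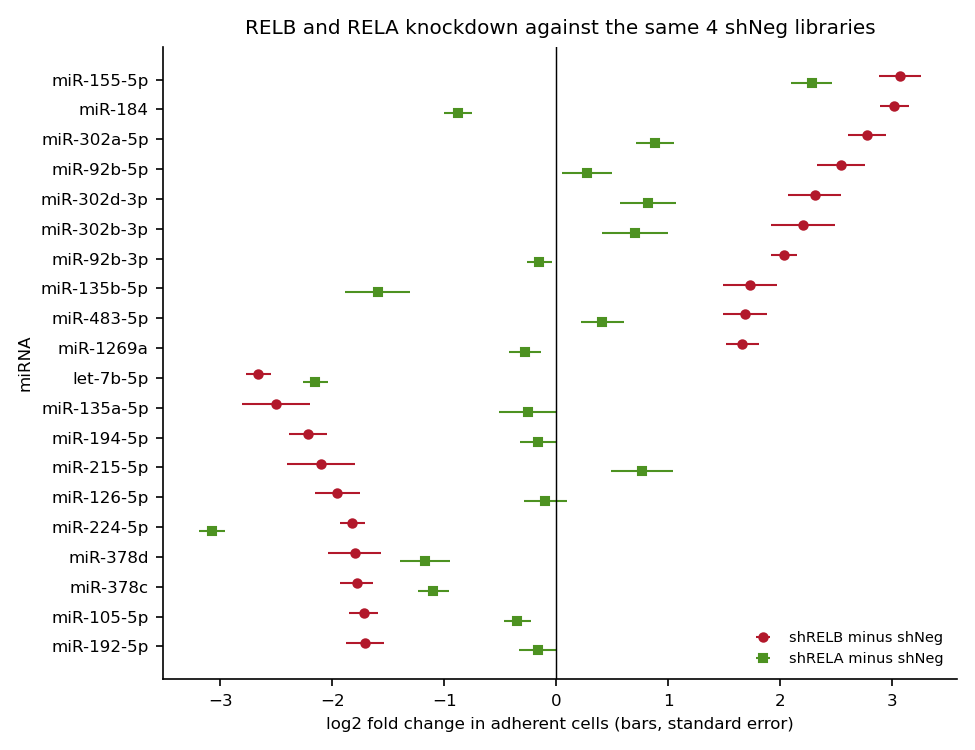
Log2 fold change against the same 4 adherent shNeg libraries (horizontal axis), with its standard error as bars, for shRELB (red circles) and shRELA (green squares) in adherent cells, for the 10 highest rises and 10 largest falls with shRELB. Among the rises, the squares of miR-184, miR-135b-5p, miR-92b-3p (−0.15) and miR-1269a (−0.28) lie below 0. Among the falls, that of miR-215-5p lies above 0, at 0.77. The square of miR-224-5p lies beyond its circle, at −3.07 against −1.82.

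RELB knockdown in spheroids shares no library with the adherent comparison. The spheroid libraries were shallower, at 959141 to 1580252 counts with shNeg and 1861232 to 3580931 with shRELB, and spheroid shNeg replicate 1 had counts on 432 miRNAs, fewer than any other library of the series. With all 24 libraries in 1 fit, 121 of 905 miRNAs (13.4%) were called with shRELB in spheroids, 66 higher (7.29%) and 55 lower (6.08%). Of the 118 adherent calls, 92 had the same direction in spheroids (78.0%), 30 were called in the same direction and 0 in the opposite direction. These 30 are 25.4% of the adherent calls and 24.8% of the spheroid calls, and without spheroid shNeg replicate 1 they were 36, where 12.7% of all miRNAs were called. Across the 692 miRNAs, which are not independent, the log2 fold changes in both cultures had a Spearman correlation of 0.21 and a Pearson correlation of 0.33, and 54.5% had the same sign.

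The size of the change differed between the cultures for 77 of 905 miRNAs (8.51%) at the same thresholds, and for 22 of the 118 adherent calls, 17 of them higher and 5 lower in adherent cells. miR-302b-3p and miR-302a-5p rose further in spheroids, at 4.86 (SE 0.49) and 4.15 (SE 0.24), with differences of adherent minus spheroid of −2.64 (SE 0.62) and −1.32 (SE 0.30). The difference was also called for miR-302d-3p and miR-135b-5p, but with at most 3 counts in any spheroid shNeg library their fitted values depend on the prior. miR-302d-3p had 2 counts in all with shNeg and 302 with shRELB in spheroids, a ratio of 86.6 (exact 95% counting interval 23.8 to 718), and miR-135b-5p had 5 and 218, a ratio of 25 (exact 95% counting interval 10.6 to 77.8). For miR-302a-3p, miR-302c-3p and miR-302c-5p, which had 3, 0 and 2 counts in all with shNeg in spheroids, the difference was not called. miR-200c-3p had a log2 fold change of 2.53 (SE 0.21) in spheroids and a difference of −1.21 (SE 0.28). Both arms of miR-92b were called in adherent cells but not in spheroids, where they had log2 fold changes of 0.57 (SE 0.17) and 0.11 (SE 0.36), and the differences of 1.5 (SE 0.23) and 2.47 (SE 0.53) were called. The spheroid value of miR-92b-5p was 0.99 without spheroid shNeg replicate 1, and the difference 1.58. For miR-126-3p, miR-23b-3p and miR-27b-3p the adherent falls were set against spheroid values of 0.14 (SE 0.21), 0.61 (SE 0.22) and 0.47 (SE 0.20), with differences of −1.72 (SE 0.30), −1.84 (SE 0.31) and −1.51 (SE 0.29). miR-184 rose less in spheroids, at 2.0 (SE 0.21) with a difference of 1.05 (SE 0.28), but without spheroid shNeg replicate 1 the difference was 0.76 and was no longer called. miR-155-5p, miR-224-5p, miR-105-5p, miR-34a-5p and miR-378c were called in the same direction in spheroids, at 3.84, −2.61, −2.02, 1.67 and −1.77, and their differences between cultures did not pass the thresholds.

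**Figure D5:**
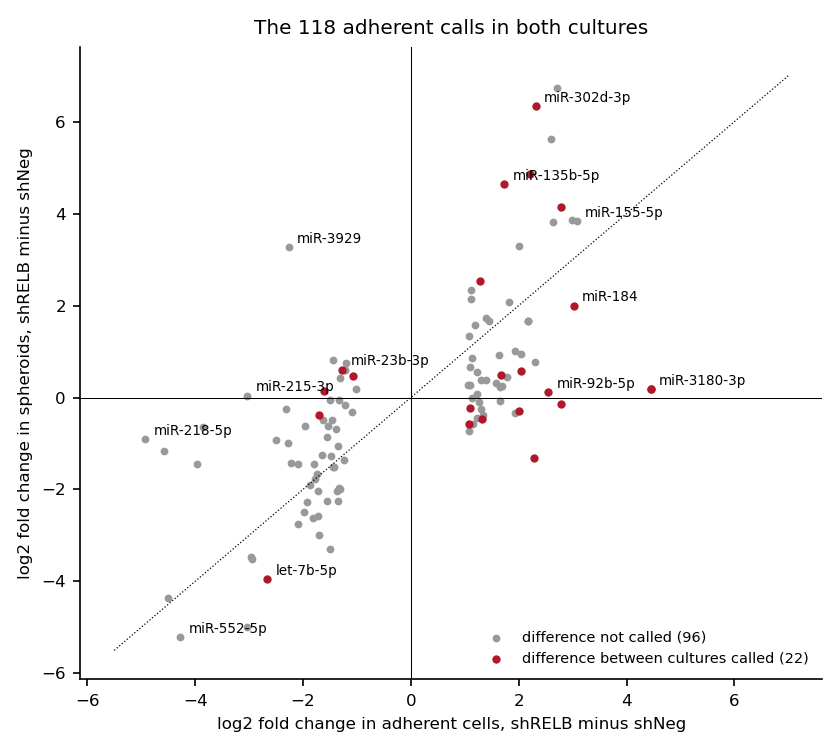
Log2 fold change of shRELB against shNeg in adherent cells (horizontal axis) and in spheroids (vertical axis) for the 118 adherent calls, with the dotted line at equal values. Red points are the 22 whose difference between the cultures was called. The miR-302 products lie above the line, 3 of the 6 with a called difference, and miR-92b-5p and miR-3180-3p lie near 0 in spheroids. Without spheroid shNeg replicate 1, these spheroid values were 0.99 and 0.98.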

How the data were processed

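Small RNA was sequenced in 24 libraries of OV90 cells, of which the 4 shRELB and 4 shNeg libraries in adherent culture are compared here. According to the study's methods, the authors made single-end libraries with a kit that adds unique molecular identifiers, removed adapters (Cutadapt) and counted reads of miRBase miRNAs on GRCh38 (miRDeep2). Whether identifiers were collapsed, and with which settings, is not given in the sources used here. The deposited values are estimated counts of mature miRNAs, left unscaled. They were rounded where not whole (3.04% of non-zero values, on 84 miRNAs). Of the 2656 miRNAs, 843 had no count in any library.

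The 12 adherent libraries were fitted with edgeR 4.0.16 (R 4.3.3) after TMM scaling, with group as the only term and a common dispersion of 0.028. The quasi-likelihood test was run on miRNAs reaching 1 CPM in 4 or more libraries, and Benjamini-Hochberg FDRs were taken over all 692. A call needed an FDR below 0.01 and a fold change above 2, the thresholds of the study. Spheroid comparisons and differences between cultures came from a fit of all 24 libraries. CPM values are TMM-scaled, with SD over 4 libraries. The standard error (SE) was derived from the log2 fold change and its F statistic.

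Named miRNAs were the 10 highest and 10 lowest log2 fold changes among calls with a mean of at least 10 CPM and separate groups, the 10 most abundant, their other arms, members of the lists and miRNAs with at most 3 counts in every library of 1 group. For lists, called members and the most abundant member were named. The called miR-378 group, miR-32-5p, miR-214-3p, miR-451a, miR-144-5p, miR-122-3p, let-7i-3p, the hairpins listed for lost calls, and a few uncalled relatives, were named after their values were seen. The members and lists were chosen with earlier results of these data known. Hairpin positions and sequences came from RefSeq (GRCh38.p14, 613 of 692 matched by name) and host genes from GENCODE.

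Alternatives were median-ratio size factors, library totals, other filters and thresholds, limma 3.58.1 on log2(CPM + 1), DESeq2 1.42.0, the likelihood ratio test, a replicate block, other sets of libraries and each library left out. The script was tested on simulated data. Raw reads and the study's other assays were not analysed here.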

Additional observations from a re-analysis of the deposited data

Results flagged for a closer look

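In 7 of 188 groups of 4 libraries, 1 value stood apart from the other 3 in a test for outlying values, where chance alone gives about 1 in 20. With shRELB these were miR-483-5p in replicate 4 (3664 CPM, against 2665 to 2750.3 in the others), miR-378c in replicate 3 (42.4 CPM), miR-205-5p in replicate 4 (536 CPM) and miR-675-3p in replicate 3 (0.536 CPM). With shNeg they were miR-146a-5p in replicate 1 (32709 CPM), miR-194-3p in replicate 1 (10.9 CPM) and miR-199a-5p in replicate 2 (0.272 CPM). The calls of miR-483-5p, miR-378c, miR-205-5p and miR-675-3p held without any 1 adherent library.

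The change with shRELB differed between adherent and spheroid culture, in the direct test of that difference, for 25 of the 94 named miRNAs. Differences are log2 fold changes in adherent cells minus those in spheroids. Positive differences were found for miR-3180-3p and miR-3180 (both 4.26), miR-92b-5p (2.47), miR-193b-5p (2.33), miR-92b-3p (1.5), let-7b-5p (1.32), miR-1269a (1.22) and miR-184 (1.05). let-7b-5p fell in both cultures and further in spheroids. Negative differences were found for miR-302d-3p (−4.02), miR-135b-5p (−2.90), miR-302b-3p (−2.64), miR-30a-3p (−2.11), miR-23b-3p (−1.84), miR-126-3p (−1.72), miR-26a-5p (−1.69), miR-130a-3p (−1.57), miR-27b-3p (−1.51) and miR-148a-3p (−1.46). The remaining negative differences were miR-16-5p (−1.35), miR-302a-5p (−1.32), miR-192-5p (−1.30), miR-146a-5p (−1.28), miR-200c-3p (−1.21), let-7a-5p (−1.14) and miR-30a-5p (−1.06). For miR-26a-5p, miR-16-5p, let-7a-5p, miR-130a-3p and miR-148a-3p, the adherent value was below 0 and not called and the spheroid value was above 0. Without spheroid shNeg replicate 1, the difference of miR-3180 and miR-3180-3p was 3.46, and the differences of miR-184 (0.76) and miR-1269a (0.79) were no longer called. The differences of miR-3180, miR-3180-3p, miR-302d-3p and miR-135b-5p are fitted against a group with at most 3 counts in every library, and their size depends on the prior.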

How the results depend on the processing

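Each named miRNA that was called kept its direction under every alternative tried, and a call was lost in 34 cases over all of them, most often for miR-30b-5p. The 118 calls became 117 with median-ratio size factors (117 of the 118 shared), 131 with library totals (114 shared), 103 with limma (102), 118 with DESeq2 (116), 130 with the likelihood ratio test (118) and 117 with only the 8 libraries compared (115). Library totals moved the median log2 fold change of all miRNAs by 0.162, and 57.3% of the calls were then higher, against 49.2%. Calls fell to 56 (29 higher, 27 lower) over miRNAs averaging 10 CPM or more, where fewer were tested, and to 64 (32 and 32) with all 24 libraries in 1 fit. With no filter, 116 of the 118 were called. With 23 libraries, without spheroid shNeg replicate 1, there were 92, 91 of them shared. Without the fold change threshold there were 201 (91 higher, 110 lower). Without any 1 adherent library, calls were 101 to 120, with 50 to 58 higher and 51 to 64 lower, and 89 of the 118 (43 higher, 46 lower) were called in each of these 12 fits.

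The contrast with shRELA gave 73 calls over miRNAs averaging 10 CPM or more, 272 without the fold change threshold and 138 to 186 with 1 library left out. The difference between cultures gave 129 calls at an FDR below 0.05 and 54 to 98 with 1 library left out. Spheroid calls were 94 to 136 with 1 library left out. The cause of these shifts was not tested. Replicate numbers of shNeg and shRELB did not pair the libraries (correlation of deviations −0.097 to 0.10), and with the replicate block there were 104 calls (51 higher, 53 lower), all among the 118.

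A set of 7 uncalled miRNAs near 0 changed sign, so no direction is given for them. miR-21-3p (−0.017) was at 0.0046 with median-ratio size factors, 0.15 with library totals, 0.072 over miRNAs averaging 10 CPM or more, 0.0045 with DESeq2 and 0.028 with all 24 and with 23 libraries. Library totals gave 0.057 for miR-92a-3p and 0.076 for miR-183-5p. miR-30d-5p was at −0.012 with no filter and −0.050 with only the 8 libraries, where miR-221-3p was at −0.027. Without any 1 library the ranges were −0.11 to 0.058 for miR-21-3p, −0.014 to 0.21 for miR-210-3p, −0.029 to 0.26 for miR-365a-3p, −0.0097 to 0.058 for miR-221-3p and −0.048 to 0.030 for miR-30d-5p. Depth limits the 65 calls with a mean under 10 CPM most.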
